A study of Mus musculus with 14 samples.

Results

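A set of 31 genes linked to the identity and self-renewal of blood stem cells was followed through 4 groups of sorted mouse bone marrow cells. The members were taken by gene symbol from a fixed list, and all 31 of them are among the 54532 symbols of the count table. They encode 12 surface proteins and receptors, 3 ligands and matrix proteins, 8 regulators of the nucleus and of RNA, 2 efflux pumps and 6 signalling, metabolic and other proteins. They were examined for loss in normal progenitors, for change with AML1-ETO in stem cells, and for their level in AML1-ETO progenitors.

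Long-term haematopoietic stem cells (LT-HSCs) renew themselves and give rise to every blood lineage, while granulocyte-monocyte progenitors (GMPs) are committed to granulocytes and monocytes and do not normally self-renew for long. The stem cell state is known to depend on transcription factors such as HLF, MECOM and PRDM16, on receptors such as TEK that receive signals from the niche, and on brakes on division and oxidative stress such as TXNIP. AML1-ETO, the fusion protein of t(8;21) acute myeloid leukaemia, keeps the DNA-binding domain of RUNX1 and joins it to most of RUNX1T1, a corepressor.

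RNA was sequenced from 14 bulk samples of sorted C57BL/6 bone marrow cells. There were 3 libraries of AML1-ETO GMPs and 4 of control GMPs, and 3 libraries of AML1-ETO LT-HSCs and 4 of control LT-HSCs. In the AML1-ETO mice Runx1-Runx1t1 was switched on through Mx1-Cre, a recombinase whose promoter responds to interferon. The labels list 4 doses of poly(I:C), which triggers interferon, at 5 mg/kg for controls and AML1-ETO samples alike, and they do not say whether the controls carried Mx1-Cre. Because the promoter responds to interferon, recombination is not limited to stem cells or to GMPs. Nothing in the labels ties the libraries to separate mice, so p-values measure only the spread between samples, which may be technical. In bulk RNA a smaller share of cells that express a gene and less RNA per cell cannot be told apart.

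The libraries held 13210952 to 19403864 counts. Levels are in CPM, a gene's counts scaled to a common library total with TMM factors of all 14 libraries. They are listed in the order of the replicate numbers and compare samples for 1 gene, not genes with each other, because CPM does not correct for gene length. Runx1t1, part of the fusion, gave 26.0, 26.3 and 45.6 CPM in GMPs with AML1-ETO, compared with 2.62, 2.31, 1.69 and 2.73 CPM in control GMPs. In LT-HSCs, Runx1t1 gave 85.5, 164 and 125 CPM with AML1-ETO, compared with 3.95, 0, 18.1 and 11.1 CPM in controls, and the genotypes did not overlap in either cell type. Runx1 had 169 to 219 CPM in AML1-ETO GMPs and 171 to 212 CPM in control GMPs, and 287 to 439.8 CPM in AML1-ETO LT-HSCs and 134 to 187 CPM in control LT-HSCs. The summed CPM of 7 GMP genes (Mpo, Elane, Ctsg, Prtn3, Fcgr3, Kit and Cd34) was 20796 to 34439 in AML1-ETO GMPs and 28077 to 32032 in control GMPs, and 2087 to 2453 in AML1-ETO LT-HSCs, where Elane was at 0, and 605 to 1067 in control LT-HSCs. AML1-ETO LT-HSCs went against the usual LT-HSC markers in part: Cd34, which mouse LT-HSCs largely lack, gave 585, 437 and 422 CPM there, compared with 47.7, 58.9, 39.2 and 29.9 CPM in control LT-HSCs. Control LT-HSC libraries held 4337 to 27580.5 CPM of 7 B and plasma cell genes, against 44 to 163 CPM in AML1-ETO LT-HSCs. A list of 7 mast cell genes summed to 8075 to 10320.5 CPM in AML1-ETO LT-HSCs and 10.3 to 40.7 CPM in control LT-HSCs, and their part in the results on the members was not tested.

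In control mice the stem cell genes were lower in GMPs almost throughout. Of 31 members tested, 26 were lower in control GMPs than in control LT-HSCs, 1 was higher (Gfi1, a repressor also needed for neutrophil development), and 4 did not pass an adjusted p of 0.05 in edgeR's quasi-likelihood test (Alcam, Prdm16, Abcb1a and Sult1a1). Over all 16116 genes tested, 10.6% were called lower and 13.9% higher. The median log2 fold change of the members was -4.47, against 0.02 over all genes tested. The control GMP values lay below all control LT-HSC values for 25 members and above them for 1, where 11.3% and 21% of all genes did so. The group mean of a member in control GMPs had a median of 4.54% of its mean in control LT-HSCs, and 18 members stood under 10%. Neither of these was computed over all genes. The calls of Cd9, Hmga2, Abcg2 and Ctnnal1 were each lost without at least 4 single libraries in turn, and the other 23 of the 27 calls held whichever 1 library was left out.

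In AML1-ETO LT-HSCs most members were not called against control LT-HSCs. Eng, Gfi1 and Hmga2 were higher than in control LT-HSCs, 6 members were lower (Neo1, Alcam, Mecom, Mllt3, Ctnnal1 and Tgm2), and 22 did not pass the test. Over all 14589 genes tested, 7.59% were called higher and 4.69% lower, so the 3 members called higher were near the share over all genes. The median log2 fold change of the members was -0.85, against 0.03 over all genes, and it is the same with Neo1, which had no count in AML1-ETO LT-HSCs, set at its bound. The groups did not overlap for 4 members that were higher and 10 that were lower, where 15.6% and 12.8% of all genes were apart in the same way. The calls of Eng, Neo1, Hmga2 and Ctnnal1 held whichever 1 library was left out. The mean of a member in AML1-ETO LT-HSCs had a median of 52.4% of its mean in control LT-HSCs, which was not computed over all genes. Leaving out AML1-ETO LT-HSC replicate 2 gave 2 members called lower, and leaving out control LT-HSC replicate 3 gave 10.

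In AML1-ETO GMPs 10 members were higher than in control GMPs and 0 were lower by edgeR, which was 0 also at an unadjusted p under 0.05 and 0 by DESeq2. The 10 were Esam, Tek, Eng and Art4 of the surface proteins, the matrix protein gene Mmrn1, Myct1, and Fgd5, Txnip, Pdzk1ip1 and Tgm2. Abcb1a, Clec1a, Neo1 and Robo4 had too few counts in GMPs to pass the filter, and 17 of the 27 members tested were not called. Over all 13981 genes tested, 5.47% were called higher and 3.96% lower. All AML1-ETO GMP libraries lay above all control GMP libraries for 13 members and below them for none, against 10.6% and 16.1% of all genes. The calls of Esam and Eng held whichever 1 library was left out. The other 8 calls were lost without each of the 4 control GMP libraries in turn, when 116 to 182 genes of all were called higher, against 765 with every library.

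AML1-ETO GMP replicate 3 stood apart from the other AML1-ETO GMP libraries in these genes. It was the highest of the 3 for 23 of the 31 members, while 31.9% of all genes tested were highest in it, and 19 members were at least 2 times higher in it than in both others. Replicate 3 exceeded all 4 control LT-HSC libraries for 9 members, while replicate 1 and replicate 2 each did so for 1 member. For these counts and the count of 19 the share over all genes was not computed. They are therefore not read as particular to the members. All 10 members called higher with the 3 libraries were also called with replicates 1 and 2 alone. That fit called more genes of all, 913 higher and 959 lower, against 765 and 554 with every library. The mean in AML1-ETO GMPs had a median over the members of 29.9% of the control LT-HSC mean, or 15.7% without replicate 3. With all 3 libraries 11 members reached 50% or more, against 5 without replicate 3 and 2 in control GMPs. These medians and counts were not computed over all genes either, and they are not read as particular to the members.

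Markers of other cell types were also measured in these libraries. The summed CPM of 6 megakaryocyte genes was 232, 159.5 and 1704 in AML1-ETO GMPs and 85.1 to 109 in control GMPs, with Gp1bb at 0 in both groups. Within that list Itga2b, the integrin chain of stem cells and megakaryocytes, had 192, 142 and 1345 CPM in AML1-ETO GMPs, and Pf4, a platelet granule chemokine, had 17.8, 4.12 and 147 CPM. A list of 10 endothelial genes without members summed to 330.2, 312 and 526 CPM in AML1-ETO GMPs and 131 to 158 CPM in control GMPs. In those AML1-ETO GMP libraries Emcn and Flt4 were at 0 in replicate 1 and Cdh5, Cldn5 and Flt4 in replicate 2, while each of the 10 genes was detected in replicate 3. In LT-HSCs the endothelial sum was 611 to 739 CPM with AML1-ETO, where Cdh5 and Cldn5 were at 0, and 115 to 154 CPM in controls, where Cdh5 and Ptprb were at 0. A list of 6 erythroid genes summed to 2532, 33.6 and 777 CPM in AML1-ETO GMPs and 6.04 to 11.1 CPM in control GMPs. The erythroid sum was 29.3 to 60.7 CPM in AML1-ETO LT-HSCs and 334 to 1414 CPM in control LT-HSCs. The mast cell sum was 1125 to 2138 CPM in AML1-ETO GMPs and 352 to 418 CPM in control GMPs. The part of these cell types in the members' values was not tested.

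Within AML1-ETO mice most members were not called between GMPs and LT-HSCs. Of 31 members, 9 were lower in AML1-ETO GMPs than in AML1-ETO LT-HSCs, 1 was higher (Alcam) and 21 were not called. Over all genes tested 9.15% were called lower and 12.6% higher. The median log2 fold change of the members was -0.70, against 0.00 over all genes. That median includes AML1-ETO GMP replicate 3, the highest AML1-ETO GMP library for 23 of the 31 members. Without replicate 3 the median of the members was -1.66, the value of Tek, against -0.04 over all genes. The 9 were Procr, Eng, Angpt1, Ltb, Hlf, Hmga2, Msi2, Myct1 and Fgd5, and all of them were also among the 26 that were lower in control GMPs than in control LT-HSCs. Without AML1-ETO GMP replicate 3 there were 13 called lower, which added Tie1, Robo4, Mllt3, Txnip and Pdzk1ip1 and lacked Procr. The AML1-ETO replicate numbers were taken as pairs from the data. With the number as a block, Procr was not called (adjusted p = 0.0739) in the fit of all 14 libraries, where the controls shared the block. In the block fit of the AML1-ETO libraries alone Hmga2 was not called (adjusted p = 0.0688) and Txnip was called lower (adjusted p = 0.0203).

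The difference between the effect of AML1-ETO in GMPs and its effect in LT-HSCs was tested in the fit of all 14 libraries. It was called for 13 members, in each case towards a higher effect in GMPs, and the other 18 were not called. A higher effect here is a larger log2 fold change, and not always a rise in GMPs. Of the 13, 7 were called higher in AML1-ETO GMPs and 4 lower in AML1-ETO LT-HSCs, with Tgm2 in both. The other 3 (Clec1a, Trpc6 and Ltb) were called in neither, and Clec1a was not tested in GMPs. The same contrast tests whether GMPs stood differently to LT-HSCs in AML1-ETO mice than in control mice. In the other direction 0 members were called by edgeR, 1 had an unadjusted p under 0.05, and DESeq2 called 1. Over all genes tested 3.43% were called towards a higher effect in GMPs and 2.91% towards a lower one. The median difference of the members was 2.86 on the log2 scale, against 0.01 over all genes. Without AML1-ETO GMP replicate 3 the median was 1.77, the value of Mllt3, against -0.07 over all genes. Both medians include Neo1, which had no count in any AML1-ETO library. With the replicate number as a block, 7 of the 13 were called, and Clec1a, Alcam, Ltb, Mecom, Mllt3 and Pdzk1ip1 were not. That block was shared with the control groups, which the numbers do not pair, so it does not show what pairing alone does. Without AML1-ETO GMP replicate 3 there were 10, with Clec1a, Alcam and Mecom not called. Without AML1-ETO LT-HSC replicate 2 there were 7, and without AML1-ETO LT-HSC replicate 1 there were 8.

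**Figure D1:**
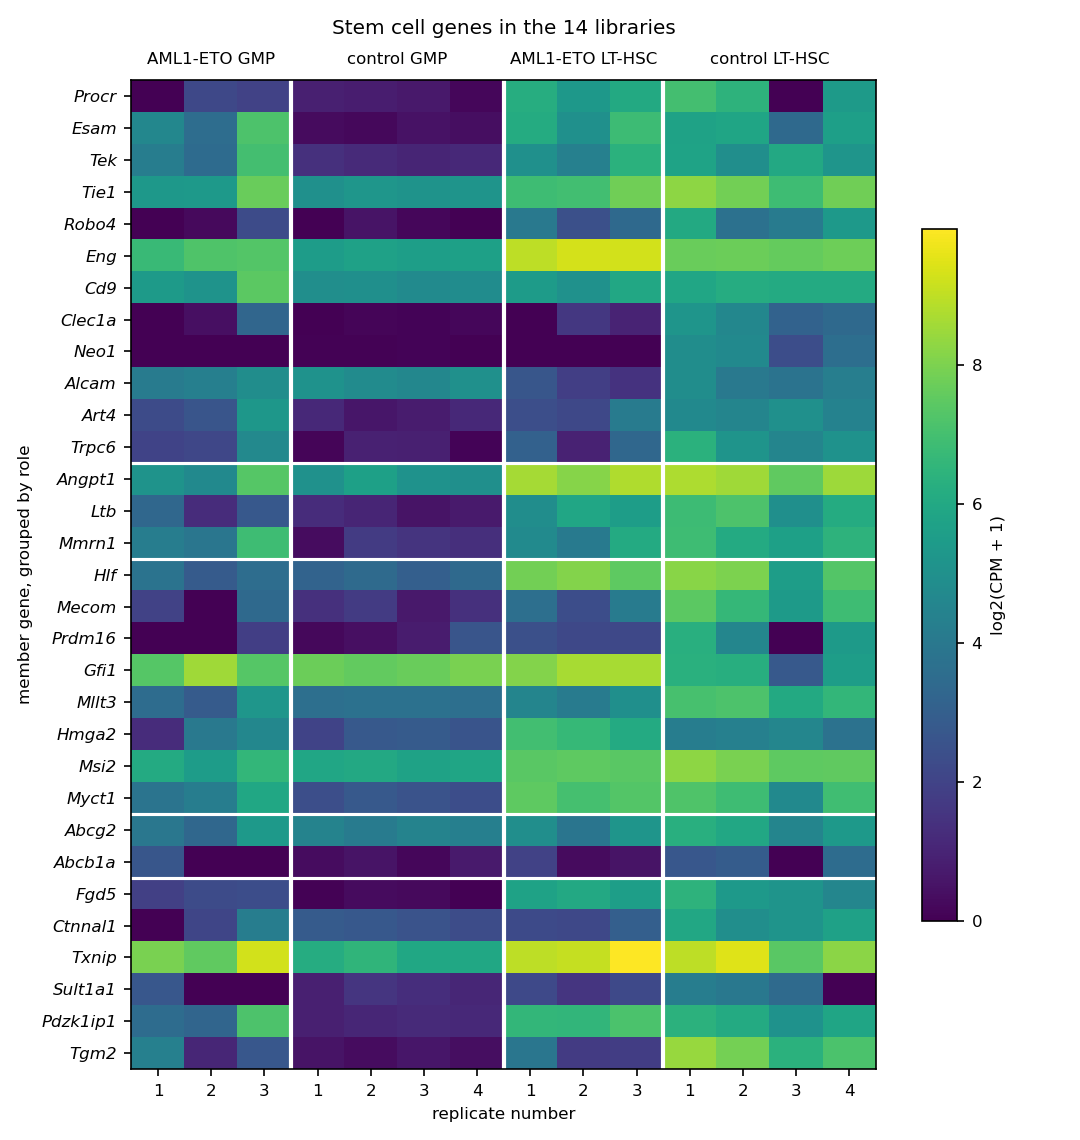
Level of the 31 members in each of the 14 libraries as log2(CPM + 1), with genes in rows grouped by role and libraries in columns by group and replicate number. The lowest group mean is that of control GMPs for 26 members, and AML1-ETO GMP replicate 3 is the brightest AML1-ETO GMP column for 23 of the 31 members.

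**Figure D2:**
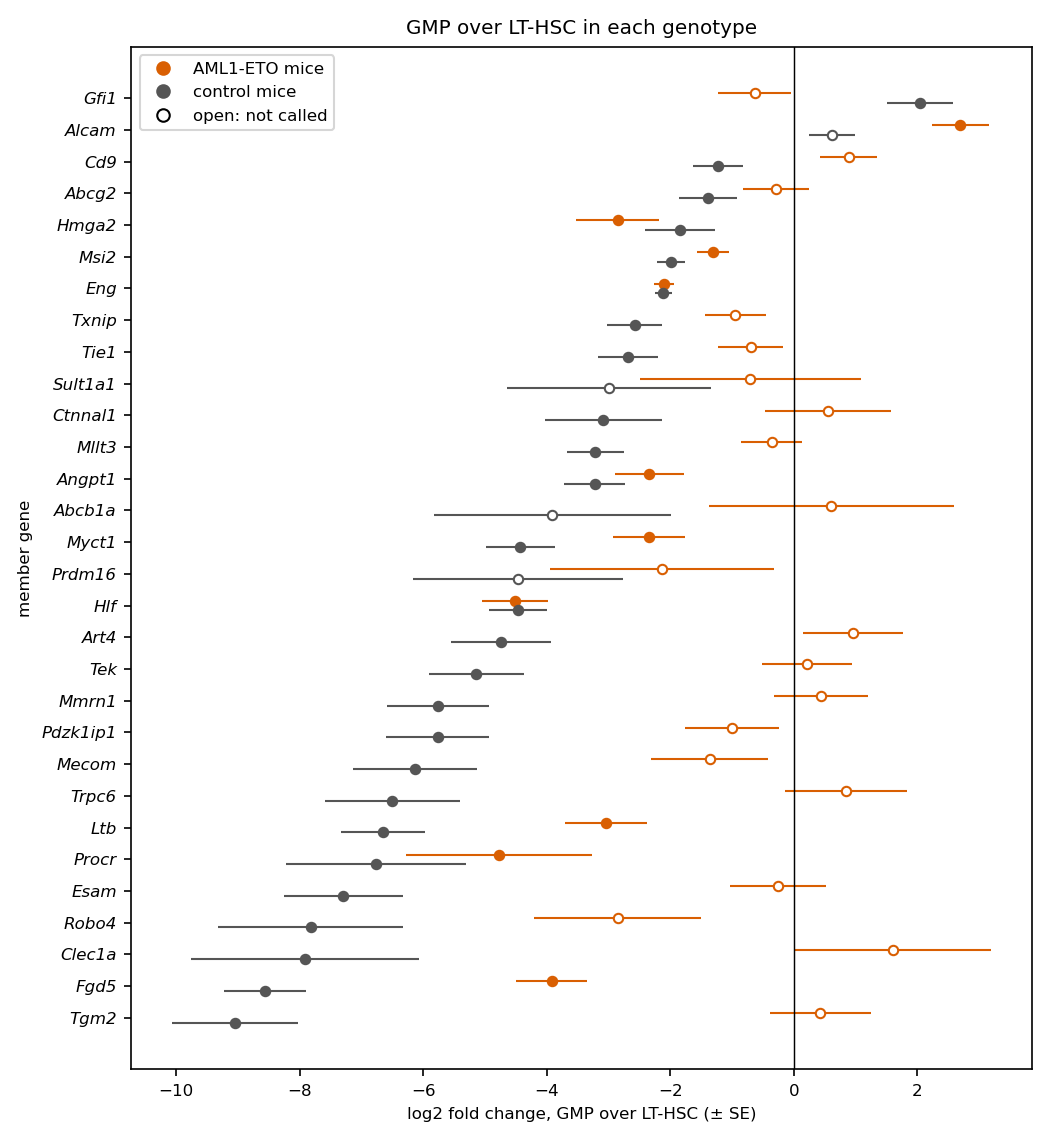
Log2 fold change of GMPs over LT-HSCs (± SE) for 30 members in AML1-ETO mice (orange) and control mice (grey), with filled points for calls at an adjusted p under 0.05. The control points lie left of 0 for all but Gfi1 and Alcam, while many AML1-ETO points, which include GMP replicate 3, lie near 0. Without that library 13 members were called lower in AML1-ETO GMPs than in AML1-ETO LT-HSCs, against 9 with it. Neo1 is not drawn because the AML1-ETO libraries held no count of it.

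The start of each gene was searched for 2 motifs in RefSeq windows of build GRCm38.p6, which run from 250 bases before the annotated start to 50 bases after it. Windows were found for 27 of the 31 members, and for Esam, Angpt1, Clec1a and Tgm2 there was none. The RUNX motif TGTGGT, read on both strands, was in 1 of the 34 windows of members (Abcg2), while 16.8% of 32851 windows of all genes held it. The GATA motif AGATAA, read on both strands, was in 3 of the 34 windows (Tek, Art4 and Myct1), while 11.2% of all windows held it. The GATA motif was thus no more frequent in the members than in all genes. The plan was to show RUNX windows of members called with AML1-ETO within a cell type, and there were none. The 3 GATA windows are shown instead because each belongs to a member that was higher in AML1-ETO GMPs. They were chosen after the values were seen. The Tek window lies at chr4:94739039-94739338 on the plus strand, with the motif 36 bases after the start. That of Art4 lies at chr6:136857551-136857850 on the minus strand, with the motif 104 bases before the RefSeq start. The gene positions given below, from GENCODE M21, put the start of Art4 at 136857733, and by them this motif lies inside the gene. The Myct1 window lies at chr10:5593478-5593777 on the plus strand, with the motif 61 bases before the start. They are written 5′ to 3′ along the gene with the GATA motif in capitals, and a match says nothing about binding.
Tek: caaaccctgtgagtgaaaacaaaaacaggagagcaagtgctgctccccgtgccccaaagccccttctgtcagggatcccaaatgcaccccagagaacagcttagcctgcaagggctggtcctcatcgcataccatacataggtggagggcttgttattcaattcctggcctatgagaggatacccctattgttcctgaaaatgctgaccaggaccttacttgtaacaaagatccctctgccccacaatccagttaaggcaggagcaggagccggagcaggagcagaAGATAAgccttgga
Art4: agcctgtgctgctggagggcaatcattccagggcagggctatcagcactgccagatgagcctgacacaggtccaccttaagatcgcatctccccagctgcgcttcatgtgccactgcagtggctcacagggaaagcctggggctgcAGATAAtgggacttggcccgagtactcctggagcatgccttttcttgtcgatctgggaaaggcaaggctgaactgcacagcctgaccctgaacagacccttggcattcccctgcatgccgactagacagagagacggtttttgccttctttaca
Myct1: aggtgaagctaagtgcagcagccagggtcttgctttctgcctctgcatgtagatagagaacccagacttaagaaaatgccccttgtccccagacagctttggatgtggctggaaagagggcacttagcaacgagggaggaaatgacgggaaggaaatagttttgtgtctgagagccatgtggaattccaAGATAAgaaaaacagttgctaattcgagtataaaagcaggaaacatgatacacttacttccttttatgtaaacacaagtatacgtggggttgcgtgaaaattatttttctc

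Among the 12 surface proteins and receptors, 11 were lower in control GMPs than in control LT-HSCs, and Alcam was not called. With AML1-ETO, Eng was higher and Neo1 and Alcam were lower in LT-HSCs, and Esam, Tek, Eng and Art4 were higher in GMPs. In the comparison within AML1-ETO mice Procr and Eng were lower in GMPs and Alcam was higher. Gene positions are those of GENCODE M21 on mm10, and every member is annotated as protein-coding. Exons of 11 members (Eng, Cd9, Angpt1, Mecom, Prdm16, Gfi1, Hmga2, Abcb1a, Txnip, Sult1a1 and Tgm2) share bases with a gene on the opposite strand. Reads of overlapping genes cannot be told apart here, because the strand setting of the counting is not given in the sources used here.

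Esam (chromosome 9, 37528078 to 37538319, plus strand) encodes an adhesion molecule of endothelial cells that also marks stem cells. Esam gave 23.7, 10.9 and 144 CPM in GMPs with AML1-ETO, compared with 0.214, 0.161, 0.389 and 0.291 CPM in control GMPs. In LT-HSCs, Esam gave 68.8, 31.4 and 113 CPM with AML1-ETO, compared with 51.9, 56.7, 9.67 and 49.0 CPM in controls. The AML1-ETO GMP values lay far above the control GMP values with no overlap, and in LT-HSCs the groups overlapped, with control LT-HSC replicate 3 lowest. The log2 fold change of control GMPs over control LT-HSCs was -7.30 ± 0.96 (adjusted p = 0.000119). In AML1-ETO GMPs over control GMPs it was 7.82 ± 1.03 (adjusted p = 0.00828), and 6.02 (adjusted p = 0.00357) without AML1-ETO GMP replicate 3. The AML1-ETO effect was higher in GMPs than in LT-HSCs by a log2 ratio of 7.04 ± 1.23 (adjusted p = 0.00538), and of 5.26 without AML1-ETO GMP replicate 3.

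Tek (chromosome 4, 94739289 to 94874976, plus strand) encodes TIE2, the receptor of angiopoietin 1 that helps to hold stem cells in quiescence, and its promoter window is among those shown. Tek gave 17.5, 10.3 and 125 CPM in GMPs with AML1-ETO, compared with 1.60, 1.29, 1.04 and 1.22 CPM in control GMPs. In LT-HSCs, Tek gave 30.8, 19.5 and 82.5 CPM with AML1-ETO, compared with 54.3, 29.5, 63.3 and 35.8 CPM in controls. Again the GMP groups were apart, replicate 3 was the highest AML1-ETO library in both cell types, and the LT-HSC groups overlapped. Tek was lower in control GMPs than in control LT-HSCs, with a log2 fold change of -5.14 ± 0.77 (adjusted p = 0.000324), and higher in AML1-ETO GMPs than in control GMPs, with 5.32 ± 0.88 (adjusted p = 0.0159). The second value without AML1-ETO GMP replicate 3 was 3.43 (adjusted p = 0.00841). Leaving out 1 control GMP library gave adjusted p-values of up to 0.0806. The effect of AML1-ETO on Tek was higher by a log2 ratio of 5.35 ± 1.05 (adjusted p = 0.00917) in GMPs than in LT-HSCs, and of 3.48 without AML1-ETO GMP replicate 3.

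Tie1 (chromosome 4, 118471191 to 118490061, minus strand) encodes the related receptor kinase, which modulates TEK. Tie1 gave 38.6, 40.9 and 205 CPM in GMPs with AML1-ETO, compared with 30.8, 36.8, 33.9 and 34.5 CPM in control GMPs. In LT-HSCs, Tie1 gave 115, 124 and 223 CPM with AML1-ETO, compared with 308, 226, 117 and 223 CPM in controls. Every AML1-ETO GMP value was above the control GMP values, 2 of them narrowly, but the log2 fold change of 1.5 was not called (adjusted p = 0.139). In control mice Tie1 was lower in GMPs than in LT-HSCs at a log2 ratio of -2.69 ± 0.48 (adjusted p = 0.00122).

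Art4 (chromosome 6, 136848451 to 136857733, minus strand) encodes an ADP-ribosyltransferase of the cell surface, known in humans as the carrier of the Dombrock blood group. Art4 gave 3.88, 5.23 and 37.9 CPM in GMPs with AML1-ETO, compared with 1.23, 0.538, 0.714 and 1.22 CPM in control GMPs. In LT-HSCs, Art4 gave 4.30, 3.45 and 16.5 CPM with AML1-ETO, compared with 25.6, 22.3, 31 and 20.7 CPM in controls. AML1-ETO libraries were all above controls in GMPs and all below controls in LT-HSCs, and replicate 3 was highest in both. The log2 fold change of control GMPs over control LT-HSCs was -4.74 ± 0.81 (adjusted p = 0.000885), and that of AML1-ETO GMPs over control GMPs was 4.09 ± 0.87 (adjusted p = 0.0282), or 2.30 (adjusted p = 0.0407) without AML1-ETO GMP replicate 3. In LT-HSCs the AML1-ETO change of -1.54 was not called (adjusted p = 0.144), and the effect was higher by a log2 ratio of 5.70 ± 1.14 (adjusted p = 0.0101) in GMPs than in LT-HSCs, and of 3.92 without AML1-ETO GMP replicate 3.

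Eng (chromosome 2, 32646595 to 32682669, plus strand) encodes endoglin, a coreceptor for TGF-beta family ligands. Eng gave 107, 148 and 156 CPM in GMPs with AML1-ETO, compared with 44.5, 51.3, 47.4 and 49.5 CPM in control GMPs. In LT-HSCs, Eng gave 506, 642 and 618 CPM with AML1-ETO, compared with 208, 213, 196 and 214 CPM in controls. AML1-ETO libraries exceeded all controls in GMPs and in LT-HSCs, and the spread within groups was small. Eng was higher in AML1-ETO GMPs than in control GMPs by a log2 fold change of 1.52 ± 0.15 (adjusted p = 0.00308) and higher in AML1-ETO LT-HSCs than in control LT-HSCs by a log2 ratio of 1.59 ± 0.16 (adjusted p = 0.00137). The difference between these effects was 0.01 and was not called (adjusted p = 1). GMPs were below LT-HSCs at a log2 ratio of -2.11 ± 0.16 (adjusted p = 4.21e-06) in AML1-ETO mice and at -2.12 ± 0.14 (adjusted p = 7.75e-07) in control mice.

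Procr (chromosome 2, 155751117 to 155755471, plus strand) encodes the endothelial protein C receptor, among the most used surface markers of mouse LT-HSCs. Procr gave 0, 3.53 and 2.88 CPM in GMPs with AML1-ETO, compared with 0.856, 0.753, 0.584 and 0.116 CPM in control GMPs. In LT-HSCs, Procr gave 72.8, 38.8 and 64.7 CPM with AML1-ETO, compared with 128, 85.6, 0 and 42.0 CPM in controls. Control LT-HSC replicate 3 had no count of it, so the LT-HSC values of both genotypes overlapped with each other and that library overlapped with the GMPs. Procr was lower in control GMPs than in control LT-HSCs, with a log2 fold change of -6.77 ± 1.46 (adjusted p = 0.00431), and lower in AML1-ETO GMPs than in AML1-ETO LT-HSCs, with -4.78 ± 1.51 (adjusted p = 0.0359). The second call was lost without each of the 6 AML1-ETO libraries in turn, without control GMP replicate 3 (adjusted p up to 0.0922), and with the replicate number as a block (adjusted p = 0.0739).

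Neo1 (chromosome 9, 58874687 to 59036441, minus strand) encodes neogenin, a receptor for netrins and repulsive guidance molecules. In LT-HSCs, Neo1 gave no count in any library with AML1-ETO, compared with 28.7, 25.6, 4.18 and 11.3 CPM in controls. In GMPs it had no count with AML1-ETO and 0.0535, 0.0538, 0.0649 and 0 CPM in controls. Neo1 was found in control LT-HSCs above trace level and in no AML1-ETO library. Against a floor of 3 counts over the group it was at least 268-fold lower in AML1-ETO LT-HSCs than in control LT-HSCs (adjusted p = 0.00863). Control GMPs held 3 counts and control LT-HSCs 1104, which makes Neo1 414-fold lower in control GMPs, with an exact 95% binomial interval of 141 to 2011 that covers counting error only.

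Alcam (chromosome 16, 52248996 to 52454074, minus strand), the gene of the adhesion molecule CD166, ran the other way between cell types in AML1-ETO mice. Alcam gave 16.6, 18.7 and 28.5 CPM in GMPs with AML1-ETO, compared with 33.2, 26.7, 23.4 and 31.2 CPM in control GMPs. In LT-HSCs, Alcam gave 5.43, 2.61 and 1.77 CPM with AML1-ETO, compared with 28.2, 15.2, 12.9 and 18 CPM in controls. AML1-ETO LT-HSCs lay below all other libraries. Alcam was higher in AML1-ETO GMPs than in AML1-ETO LT-HSCs by a log2 ratio of 2.70 ± 0.46 (adjusted p = 0.000965) and lower in AML1-ETO LT-HSCs than in control LT-HSCs at a log2 ratio of -2.41 ± 0.65 (adjusted p = 0.0463), a call that was lost without 6 of the 7 LT-HSC libraries in turn. The effect in GMPs was higher by a log2 ratio of 2.08 ± 0.58 (adjusted p = 0.0481) than in LT-HSCs, and it did not pass without 12 of the 14 libraries in turn or with the replicate block (adjusted p = 0.0735). Without AML1-ETO LT-HSC replicate 1 the LT-HSC value was -3.0.

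Trpc6 (chromosome 9, 8544142 to 8680741, plus strand) encodes a cation channel. Trpc6 gave 3.02, 3.40 and 24.7 CPM in GMPs with AML1-ETO, compared with 0.107, 0.861, 0.844 and 0.0581 CPM in control GMPs. In LT-HSCs, Trpc6 gave 7.46, 0.920 and 8.92 CPM with AML1-ETO, compared with 80.9, 34.3, 22.2 and 33.2 CPM in controls. AML1-ETO values were above controls in GMPs and below controls in LT-HSCs without overlap. Neither change passed the test alone, with a log2 fold change of 4.47 in GMPs (adjusted p = 0.0513) and -2.80 in LT-HSCs (adjusted p = 0.0523), while the difference of the effects was 7.35 ± 1.47 (adjusted p = 0.0101), or 5.66 without AML1-ETO GMP replicate 3. Control GMPs were below control LT-HSCs at a log2 ratio of -6.50 ± 1.09 (adjusted p = 0.000777).

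Clec1a (chromosome 6, 129424772 to 129452000, minus strand) encodes a C-type lectin-like receptor. Clec1a gave 0, 0.327 and 8.87 CPM in GMPs with AML1-ETO, compared with 0, 0.108, 0.0649 and 0.116 CPM in control GMPs. In LT-HSCs, Clec1a gave 0, 2.07 and 0.977 CPM with AML1-ETO, compared with 35.5, 23.5, 7.84 and 9.70 CPM in controls. Every AML1-ETO LT-HSC value was below every control LT-HSC value, and in GMPs Clec1a was above trace level in AML1-ETO replicate 3. It was lower in control GMPs than in control LT-HSCs at a log2 ratio of -7.92 ± 1.85 (adjusted p = 0.0071), and the difference of the AML1-ETO effects was 9.51 ± 2.47 (adjusted p = 0.0343). That call was lost without AML1-ETO GMP replicate 3, at 5.34, without 9 other libraries in turn, and with the replicate block (adjusted p = 0.106).

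Robo4 (chromosome 9, 37401897 to 37415115, plus strand), a roundabout receptor that helps to anchor stem cells in the niche, gave 0, 0.196 and 3.86 CPM in GMPs with AML1-ETO, compared with 0, 0.430, 0.130 and 0 CPM in control GMPs. In LT-HSCs, Robo4 gave 15.5, 4.45 and 9.59 CPM with AML1-ETO, compared with 64.8, 12.1, 16.9 and 41.3 CPM in controls. The highest GMP value was that of AML1-ETO replicate 3, and control GMPs were below control LT-HSCs at a log2 ratio of -7.83 ± 1.5 (adjusted p = 0.00194), or -9.47 without control GMP replicate 2. Cd9 (chromosome 6, 125460266 to 125494791, minus strand), a tetraspanin, gave 42.1, 33.4 and 175 CPM in GMPs with AML1-ETO, compared with 29.5, 30.1, 26.1 and 27.8 CPM in control GMPs. In LT-HSCs, Cd9 gave 43.0, 31.5 and 61.2 CPM with AML1-ETO, compared with 58.2, 71.2, 67.3 and 67.8 CPM in controls. All AML1-ETO GMPs were above the control GMPs, and the 1 call for Cd9 was the lower level in control GMPs than in control LT-HSCs, with a log2 fold change of -1.23 ± 0.41 (adjusted p = 0.0411). It was lost without 10 of the 14 libraries in turn.

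The 3 ligands and matrix proteins were all lower in control GMPs than in control LT-HSCs, none was called with AML1-ETO in LT-HSCs, and Mmrn1 was higher in AML1-ETO GMPs. Mmrn1 (chromosome 6, 60924976 to 60989378, plus strand) encodes multimerin 1, a matrix protein of platelets and endothelium that also marks stem cells. Mmrn1 gave 17.7, 14.3 and 117 CPM in GMPs with AML1-ETO, compared with 0.267, 2.31, 1.82 and 1.51 CPM in control GMPs. In LT-HSCs, Mmrn1 gave 26.6, 16.3 and 66.9 CPM with AML1-ETO, compared with 117, 67.5, 49.6 and 85.2 CPM in controls. The GMP groups did not overlap, replicate 3 held the highest AML1-ETO value in both cell types, and the LT-HSC groups overlapped. For Mmrn1 the log2 ratio was -5.76 ± 0.83 (adjusted p = 0.000231) for control GMPs over control LT-HSCs and 5.09 ± 0.93 (adjusted p = 0.021) for AML1-ETO GMPs over control GMPs, or 3.44 (adjusted p = 0.0258) without AML1-ETO GMP replicate 3. The effect was higher by a log2 ratio of 6.21 ± 1.11 (adjusted p = 0.0059) in GMPs than in LT-HSCs, and of 4.56 without AML1-ETO GMP replicate 3.

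Angpt1 (chromosome 15, 42424723 to 42676977, minus strand) encodes angiopoietin 1, the ligand of TEK. Angpt1 gave 33.6, 25.5 and 163 CPM in GMPs with AML1-ETO, compared with 32.1, 49.3, 33.2 and 30.1 CPM in control GMPs. In LT-HSCs, Angpt1 gave 397, 286 and 443 CPM with AML1-ETO, compared with 424, 376, 186 and 364 CPM in controls. LT-HSCs of both genotypes were high and overlapped, and all GMP libraries were below all LT-HSC libraries. GMPs were lower than LT-HSCs at a log2 ratio of -2.34 ± 0.56 (adjusted p = 0.00792) in AML1-ETO mice and at -3.23 ± 0.50 (adjusted p = 0.000422) in control mice. The first value was -3.65 without AML1-ETO GMP replicate 3. In AML1-ETO GMPs over control GMPs its log2 fold change was 1.05 and was not called (adjusted p = 0.335).

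Ltb (chromosome 17, 35194439 to 35196320, plus strand) encodes lymphotoxin beta, a ligand of the TNF family. Ltb gave 9.13, 1.37 and 5.63 CPM in GMPs with AML1-ETO, compared with 1.39, 1.02, 0.454 and 0.640 CPM in control GMPs. In LT-HSCs, Ltb gave 28.6, 58.4 and 46.3 CPM with AML1-ETO, compared with 114, 145, 29.9 and 69.0 CPM in controls. GMP values overlapped between genotypes, as did LT-HSC values, and each GMP library was below each LT-HSC library. GMPs were lower at a log2 ratio of -3.04 ± 0.66 (adjusted p = 0.0044) in AML1-ETO mice and at -6.65 ± 0.68 (adjusted p = 1.77e-05) in control mice, and the AML1-ETO effect was higher by a log2 ratio of 3.61 ± 0.86 (adjusted p = 0.023) in GMPs than in LT-HSCs, a call lost without 6 of the 14 libraries in turn and with the replicate block (adjusted p = 0.055). When AML1-ETO GMP replicate 1 was left out that difference was 2.99, and the log2 ratio within AML1-ETO mice was -3.65.

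Of the transcription and chromatin factors, the RNA-binding protein gene Msi2 and Myct1, 6 of 8 were lower in control GMPs than in control LT-HSCs. Gfi1 was higher there, and Prdm16 was not called. AML1-ETO LT-HSCs had higher Gfi1 and Hmga2 and lower Mecom and Mllt3, and in AML1-ETO GMPs Myct1 was the 1 member of this group called higher. Hlf, Hmga2, Msi2 and Myct1 were lower in AML1-ETO GMPs than in AML1-ETO LT-HSCs.

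Hlf (chromosome 11, 90336536 to 90390895, minus strand), a bZIP transcription factor gene that marks stem cells, was low in all GMPs. Hlf gave 12.8, 6.28 and 10.8 CPM in GMPs with AML1-ETO, compared with 7.92, 9.79, 7.07 and 9.54 CPM in control GMPs. In LT-HSCs, Hlf gave 228, 276 and 182 CPM with AML1-ETO, compared with 295, 257, 46.5 and 158 CPM in controls. The genotypes overlapped in both cell types, and GMPs and LT-HSCs did not overlap in either genotype. GMPs were lower than LT-HSCs at a log2 ratio of -4.52 ± 0.54 (adjusted p = 6.27e-05) in AML1-ETO mice and at -4.47 ± 0.47 (adjusted p = 2.01e-05) in control mice. The AML1-ETO log2 fold change was 0.23 in GMPs (adjusted p = 0.742) and 0.36 in LT-HSCs (adjusted p = 0.763), neither of them called.

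Mecom (chromosome 3, 29951296 to 30548008, minus strand) encodes EVI1, a zinc finger factor that stem cells need for self-renewal. Mecom gave 2.96, 0 and 9.55 CPM in GMPs with AML1-ETO, compared with 1.60, 2.31, 0.584 and 1.63 CPM in control GMPs. In LT-HSCs, Mecom gave 11.6, 4.07 and 16.6 CPM with AML1-ETO, compared with 175, 99.9, 41.7 and 117 CPM in controls. AML1-ETO LT-HSCs were below all control LT-HSCs. Mecom was lower in AML1-ETO LT-HSCs than in control LT-HSCs at a log2 ratio of -3.25 ± 0.62 (adjusted p = 0.0133), and this call was lost without AML1-ETO LT-HSC replicate 1 or 2 (adjusted p up to 0.0708). Control GMPs were below control LT-HSCs at a log2 ratio of -6.14 ± 1.0 (adjusted p = 0.000605). The difference of 4.77 ± 1.30 (adjusted p = 0.0431) between the AML1-ETO effects in GMPs and LT-HSCs was lost without 12 of the 14 libraries in turn, AML1-ETO GMP replicate 3 among them, where it was 3.28, and with the replicate block (adjusted p = 0.112).

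Mllt3 (chromosome 4, 87769925 to 88033364, minus strand) encodes AF9, a reader of acylated histones in the elongation machinery and a known regulator of human stem cell maintenance. Mllt3 gave 10.6, 6.34 and 36.9 CPM in GMPs with AML1-ETO, compared with 11.5, 12.3, 12.3 and 11.4 CPM in control GMPs. In LT-HSCs, Mllt3 gave 22.3, 16.7 and 30.3 CPM with AML1-ETO, compared with 133, 144, 66.2 and 95.8 CPM in controls. Among LT-HSCs the AML1-ETO values were all below the controls, and in GMPs the groups overlapped. The log2 fold change was -2.16 ± 0.34 (adjusted p = 0.00731) in AML1-ETO over control LT-HSCs, a call that needed AML1-ETO LT-HSC replicate 2, and -3.22 ± 0.46 (adjusted p = 0.000237) in control GMPs over control LT-HSCs. The AML1-ETO effect on Mllt3 was higher by a log2 ratio of 2.86 ± 0.66 (adjusted p = 0.0205) in GMPs than in LT-HSCs, and this did not pass without AML1-ETO LT-HSC replicate 1 or 2 or with the replicate block (adjusted p = 0.0513). It was 1.77 without AML1-ETO GMP replicate 3.

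Hmga2 (chromosome 10, 120361275 to 120476469, minus strand) encodes a chromatin protein that is high in fetal stem cells and promotes their self-renewal. Hmga2 gave 1.38, 15.4 and 23.6 CPM in GMPs with AML1-ETO, compared with 3.0, 5.97, 6.29 and 4.94 CPM in control GMPs. In LT-HSCs, Hmga2 gave 123, 103 and 66.9 CPM with AML1-ETO, compared with 17.5, 19, 22.7 and 12.7 CPM in controls. AML1-ETO LT-HSCs stood above all other libraries. Hmga2 was higher in AML1-ETO LT-HSCs than in control LT-HSCs by a log2 ratio of 2.54 ± 0.30 (adjusted p = 0.00227). GMPs were below LT-HSCs at a log2 ratio of -2.86 ± 0.67 (adjusted p = 0.00745) in AML1-ETO mice and at -1.84 ± 0.57 (adjusted p = 0.0295) in control mice, and the second of these calls was lost without each of the 4 control GMP libraries in turn. The first was -3.53 without AML1-ETO GMP replicate 3.

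Gfi1 (chromosome 5, 107716657 to 107726036, minus strand) encodes a repressor that limits the division of stem cells and directs granulocyte development. Gfi1 gave 163, 373 and 162 CPM in GMPs with AML1-ETO, compared with 212, 188, 206 and 247 CPM in control GMPs. In LT-HSCs, Gfi1 gave 277, 401 and 408 CPM with AML1-ETO, compared with 80.3, 74.1, 5.81 and 45.4 CPM in controls. Control LT-HSCs were the low group, below every library of the other 3 groups. Gfi1 was higher in AML1-ETO LT-HSCs than in control LT-HSCs by a log2 ratio of 2.89 ± 0.69 (adjusted p = 0.0315), a call lost without 5 of the 7 libraries in turn, and higher in control GMPs than in control LT-HSCs by a log2 ratio of 2.04 ± 0.54 (adjusted p = 0.0132).

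Msi2 (chromosome 11, 88339382 to 88718513, minus strand) encodes an RNA-binding protein that supports stem cell self-renewal. Msi2 gave 68.0, 44.4 and 97.2 CPM in GMPs with AML1-ETO, compared with 59.4, 63.9, 52.2 and 57.5 CPM in control GMPs. In LT-HSCs, Msi2 gave 171, 178 and 169 CPM with AML1-ETO, compared with 309.9, 251, 182 and 182 CPM in controls. Each GMP library was below each LT-HSC library, at a log2 ratio of -1.31 ± 0.26 (adjusted p = 0.00246) in AML1-ETO mice and -1.99 ± 0.23 (adjusted p = 4.12e-05) in control mice. Myct1 (chromosome 10, 5593775 to 5606904, plus strand), named as a target of MYC, gave 13.1, 17.8 and 61.0 CPM in GMPs with AML1-ETO, compared with 4.23, 5.92, 4.80 and 4.13 CPM in control GMPs. In LT-HSCs, Myct1 gave 178, 131 and 157 CPM with AML1-ETO, compared with 149, 117, 25.2 and 119 CPM in controls. Its AML1-ETO GMP values were above those of control GMPs, and the LT-HSC groups overlapped. Myct1 was higher in AML1-ETO GMPs than in control GMPs by a log2 ratio of 2.70 ± 0.52 (adjusted p = 0.0233), or 1.70 (adjusted p = 0.0187) without AML1-ETO GMP replicate 3. GMPs were lower than LT-HSCs in Myct1 at a log2 ratio of -2.34 ± 0.58 (adjusted p = 0.0107) in AML1-ETO mice and at -4.43 ± 0.56 (adjusted p = 8.88e-05) in control mice, and at -3.32 in AML1-ETO mice without AML1-ETO GMP replicate 3. Prdm16 (chromosome 4, 154316125 to 154636873, minus strand), a zinc finger factor gene of stem cells, ranged over 0 to 2.57 CPM in AML1-ETO GMPs, 0.160 to 5.23 CPM in control GMPs, 3.42 to 4.47 CPM in AML1-ETO LT-HSCs and 0 to 77.0 CPM in control LT-HSCs, and was called in no comparison.

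**Figure D3:**
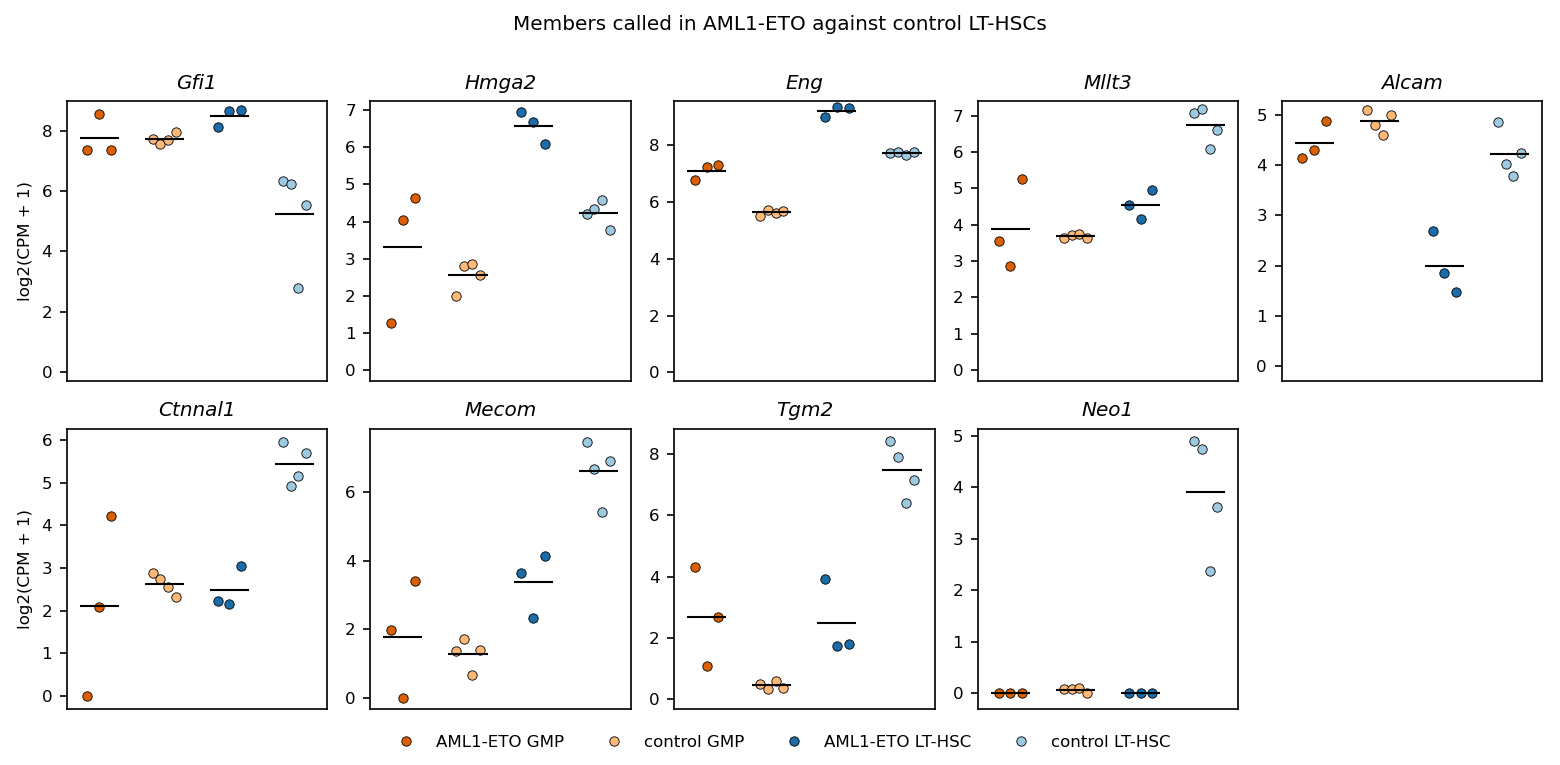
Level as log2(CPM + 1) of the 9 members called between AML1-ETO and control LT-HSCs, 1 panel per gene, with a point per library and a line at the mean of the log2 values in the 4 groups. The AML1-ETO LT-HSC points of Hmga2, Gfi1 and Eng lie above all control LT-HSC points, and those of the other 6 genes lie below them.

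Of the 2 efflux pumps, Abcg2 was lower in control GMPs than in control LT-HSCs, and neither was called with AML1-ETO. Abcg2 (chromosome 6, 58584523 to 58695676, plus strand) encodes the transporter that gives stem cells their dye-excluding side population. Abcg2 gave 14.4, 9.16 and 41.2 CPM in GMPs with AML1-ETO, compared with 20.9, 16.6, 20.7 and 18.5 CPM in control GMPs. In LT-HSCs, Abcg2 gave 29.8, 13.8 and 35.4 CPM with AML1-ETO, compared with 76.5, 62.1, 22.3 and 40.1 CPM in controls. Groups overlapped between the genotypes in both cell types. The log2 fold change of control GMPs over control LT-HSCs was -1.40 ± 0.47 (adjusted p = 0.0435), and the call was lost without 9 of the 14 libraries in turn. Abcb1a (chromosome 5, 8660077 to 8748575, plus strand), a P-glycoprotein gene with a near paralog, was between 0 and 10.4 CPM in all 14 libraries and was called in no comparison.

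Of the 6 signalling, metabolic and other proteins, 5 were lower in control GMPs than in control LT-HSCs, and Sult1a1 was not called. AML1-ETO LT-HSCs had lower Ctnnal1 and Tgm2, and AML1-ETO GMPs had higher Fgd5, Txnip, Pdzk1ip1 and Tgm2 than control GMPs.

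Fgd5 (chromosome 6, 91978878 to 92076004, plus strand) encodes a guanine nucleotide exchange factor whose locus is used to mark mouse stem cells. Fgd5 gave 2.69, 3.86 and 4.16 CPM in GMPs with AML1-ETO, compared with 0.0535, 0.215, 0.195 and 0 CPM in control GMPs. In LT-HSCs, Fgd5 gave 52.0, 64.0 and 47.0 CPM with AML1-ETO, compared with 86.4, 40.5, 34.8 and 22.7 CPM in controls. It stood within a narrow range in AML1-ETO GMPs, above all control GMPs and far below all LT-HSCs. The log2 fold change of Fgd5 was 4.88 ± 1.04 (adjusted p = 0.028) for AML1-ETO over control GMPs and 4.75 (adjusted p = 0.0296) without AML1-ETO GMP replicate 3. GMPs were below LT-HSCs at a log2 ratio of -3.92 ± 0.57 (adjusted p = 0.000278) in AML1-ETO mice and at -8.56 ± 0.66 (adjusted p = 2.60e-06) in control mice, and the AML1-ETO effect was higher by a log2 ratio of 4.64 ± 0.80 (adjusted p = 0.00508) in GMPs.

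Pdzk1ip1 (chromosome 4, 115088708 to 115093899, plus strand) encodes a small membrane protein also called MAP17. Pdzk1ip1 gave 10.6, 8.44 and 146 CPM in GMPs with AML1-ETO, compared with 0.856, 1.08, 1.30 and 1.22 CPM in control GMPs. In LT-HSCs, Pdzk1ip1 gave 96.2, 92.3 and 142 CPM with AML1-ETO, compared with 84.2, 67.6, 32.9 and 57.6 CPM in controls. AML1-ETO libraries were above controls in both cell types, with replicate 3 highest of the AML1-ETO libraries in each. The rise in AML1-ETO GMPs over control GMPs was 5.64 ± 1.06 (adjusted p = 0.022) on the log2 scale, and 3.10 (adjusted p = 0.0105) without AML1-ETO GMP replicate 3. In LT-HSCs the AML1-ETO change was 0.94 and was not called (adjusted p = 0.0982). Control GMPs were below control LT-HSCs at a log2 ratio of -5.77 ± 0.83 (adjusted p = 0.000247). The effect was higher by a log2 ratio of 4.76 ± 1.09 (adjusted p = 0.0195) in GMPs than in LT-HSCs, and this call was lost without AML1-ETO LT-HSC replicate 1 or 2 and with the replicate block (adjusted p = 0.0572). It was 2.24 without AML1-ETO GMP replicate 3.

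Tgm2 (chromosome 2, 158116402 to 158146436, minus strand) encodes transglutaminase 2, which crosslinks proteins. Tgm2 gave 19, 1.11 and 5.45 CPM in GMPs with AML1-ETO, compared with 0.428, 0.269, 0.519 and 0.291 CPM in control GMPs. In LT-HSCs, Tgm2 gave 14.1, 2.30 and 2.50 CPM with AML1-ETO, compared with 339.7, 239, 82.4 and 140.3 CPM in controls. Control LT-HSCs were the high group, control GMPs the low group, and both AML1-ETO groups lay between them without overlapping either. Tgm2 was higher in AML1-ETO GMPs than in control GMPs by a log2 ratio of 4.5 ± 0.94 (adjusted p = 0.027) and lower in AML1-ETO LT-HSCs than in control LT-HSCs at a log2 ratio of -4.88 ± 0.86 (adjusted p = 0.0101), calls that were lost without each of the 4 control GMP libraries in turn for GMPs and without AML1-ETO LT-HSC replicate 2 for LT-HSCs. Without AML1-ETO GMP replicate 1, the highest of its group, the GMP value was 3.11, and without AML1-ETO LT-HSC replicate 1 the LT-HSC value was -6.30. In control mice GMPs were below LT-HSCs at a log2 ratio of -9.04 ± 1.02 (adjusted p = 3.71e-05), while in AML1-ETO mice the log2 fold change was 0.43 and was not called (adjusted p = 0.788). The difference of the AML1-ETO effects, 9.47 ± 1.31 (adjusted p = 0.00145), was called whichever 1 library was left out, at 8.10 to 10.85.

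Txnip (chromosome 3, 96557957 to 96561883, plus strand) encodes the thioredoxin-interacting protein, a brake on glucose uptake and on stem cell division. Txnip gave 249, 187 and 623 CPM in GMPs with AML1-ETO, compared with 71.2, 90.8, 61.0 and 60.6 CPM in control GMPs. In LT-HSCs, Txnip gave 500.1, 543 and 1001 CPM with AML1-ETO, compared with 506, 709.7, 171 and 299 CPM in controls. GMP groups were apart and LT-HSC groups overlapped. Txnip was higher in AML1-ETO GMPs than in control GMPs by a log2 ratio of 2.33 ± 0.39 (adjusted p = 0.0171), or 1.63 (adjusted p = 0.00932) without AML1-ETO GMP replicate 3, and lower in control GMPs than in control LT-HSCs at a log2 ratio of -2.58 ± 0.45 (adjusted p = 0.001).

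Ctnnal1 (chromosome 4, 56810935 to 56865188, minus strand) encodes alpha-catulin, a marker of stem cells in the mouse. Ctnnal1 gave 0, 3.27 and 17.7 CPM in GMPs with AML1-ETO, compared with 6.31, 5.65, 4.87 and 4.01 CPM in control GMPs. In LT-HSCs, Ctnnal1 gave 3.70, 3.45 and 7.21 CPM with AML1-ETO, compared with 61.5, 29.5, 34.6 and 50.7 CPM in controls. AML1-ETO LT-HSCs were below all control LT-HSCs, and the GMP groups overlapped. The log2 fold change of AML1-ETO LT-HSCs over control LT-HSCs was -3.12 ± 0.45 (adjusted p = 0.00525), a call that held whichever 1 library was left out. Control GMPs were below control LT-HSCs at a log2 ratio of -3.08 ± 0.94 (adjusted p = 0.0282), a call lost without each control GMP library in turn and without control LT-HSC replicate 1 or 4. Sult1a1 (chromosome 7, 126672865 to 126676432, minus strand), a sulfotransferase gene, was between 0 and 17.9 CPM in all 14 libraries and was called in no comparison.

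**Figure D4:**
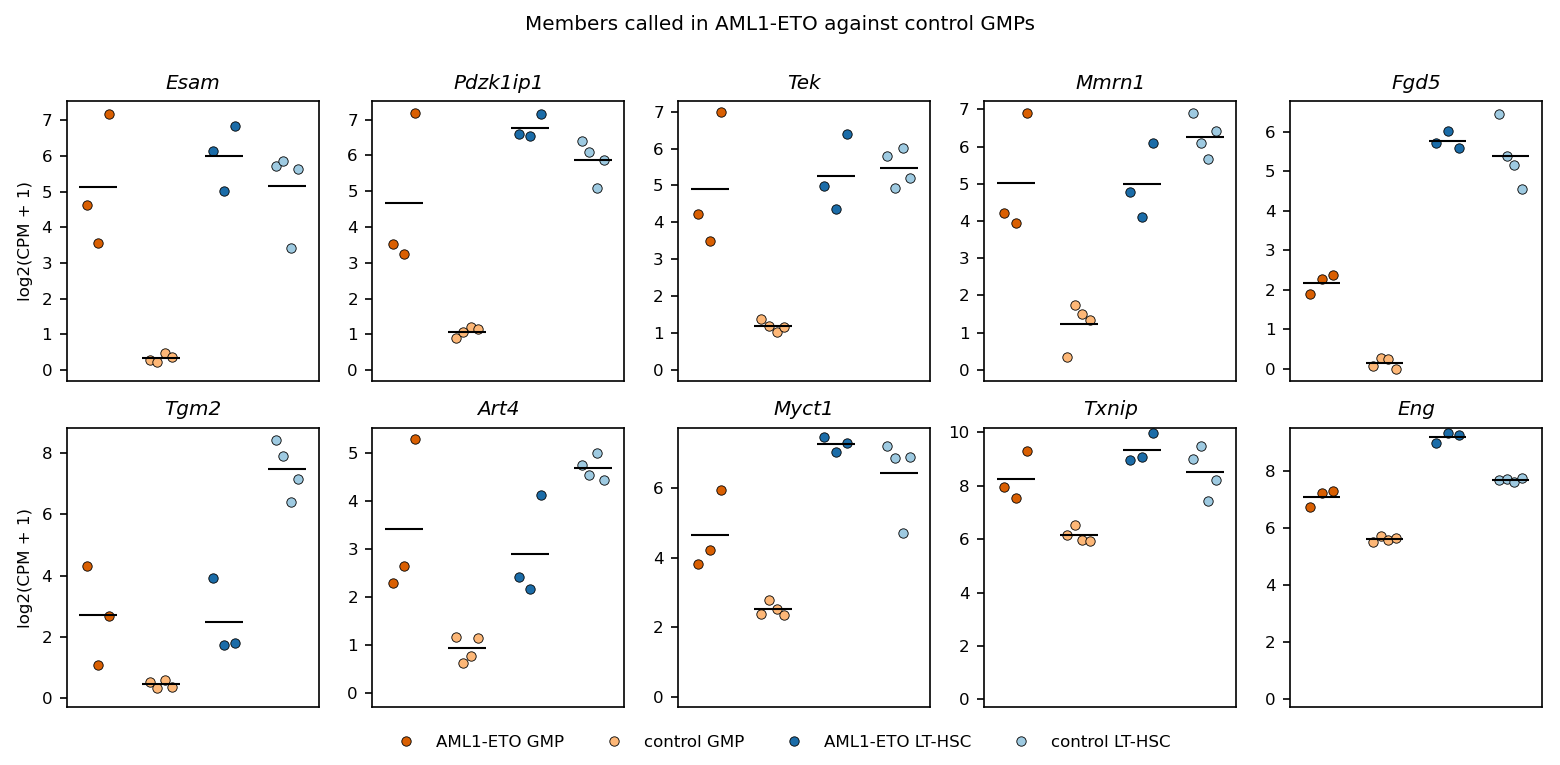
Level as log2(CPM + 1) of the 10 members called between AML1-ETO and control GMPs, 1 panel per gene, with a point per library and a line at the mean of the log2 values in the 4 groups. All AML1-ETO GMP points lie above all control GMP points, and in the panels of Esam, Pdzk1ip1, Tek, Mmrn1, Art4 and Myct1 that of replicate 3 lies far above the other 2.

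A further list of 34 stem cell genes that are no members was examined in the same comparisons, and 33 of them were tested outside the GMP comparison. In control GMPs 22 were lower and 3 higher than in control LT-HSCs, against 10.6% and 13.9% of all genes. The median log2 fold change was -2.98, against 0.02 over all genes. Slamf1, which encodes CD150, was lower there at a log2 ratio of -7.49 ± 1.11 (adjusted p = 0.000292). Ly6a, the gene of SCA-1, was lower at a log2 ratio of -6.82 ± 0.78 (adjusted p = 4.20e-05). In the fit of AML1-ETO over control LT-HSCs 7.59% of all genes were called higher and 4.69% lower. Of the list 4 were higher and 7 lower, with a median of 0.16, against 0.03 over all genes. Without 1 AML1-ETO LT-HSC library there were 0 to 1 higher and 3 to 6 lower, and without 1 control LT-HSC library 2 to 4 and 7 to 9. The 4 that were higher, named after their values were seen, were the stem cell factor receptor gene Kit at a log2 ratio of 0.79 ± 0.21 (adjusted p = 0.0436), the transcription factor genes Gata2 at 0.86 ± 0.22 (adjusted p = 0.039) and Lyl1 at 1.27 ± 0.21 (adjusted p = 0.00801), and the ETS factor gene Erg at 1.30 ± 0.27 (adjusted p = 0.0202). Each call was lost without AML1-ETO LT-HSC replicate 2. Of the 7 libraries left out in turn, Kit lost its call without 6, Gata2 without 5, Erg without 4 and Lyl1 without 1. The proto-oncogene Mycn fell by a log2 ratio of 7.2 ± 1.13 (adjusted p = 0.00694) and Ifitm1, an interferon-induced membrane protein gene, fell by a log2 ratio of 5.36 ± 0.71 (adjusted p = 0.00368). Hoxa9, a homeobox factor gene of stem and progenitor cells, fell by a log2 ratio of 2.90 ± 0.62 (adjusted p = 0.0209). The Hoxa9 call was lost without each AML1-ETO LT-HSC library in turn.

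Of 29 such genes tested in GMPs, 7 were higher and 1 lower in AML1-ETO GMPs than in control GMPs, against 5.47% and 3.96% of all genes. The median log2 fold change was 0.79, against -0.03 over all genes. The 1 lower was Kit, named after its values were seen, at a log2 ratio of -0.50 ± 0.12 (adjusted p = 0.0342). Without 1 control GMP library there were 0 to 1 higher and 0 lower, and without 1 AML1-ETO GMP library 5 to 12 higher and 1 to 3 lower. Slamf1 gave 5.52, 2.49 and 67.2 CPM in GMPs with AML1-ETO, compared with 0, 0.269, 0.649 and 0.174 CPM in control GMPs, a log2 fold change of 6.54 ± 1.40 (adjusted p = 0.0285). Replicate 3 was again the highest, and the GMP groups did not overlap. Without it the value was 3.87 (adjusted p = 0.0665), which was not called. The transcription factor gene Sox18, Trim47 and Nupr1, a stress-response regulator gene, were higher by a log2 ratio of 6.09 ± 1.42 (adjusted p = 0.035), 5.64 ± 0.93 (adjusted p = 0.0159) and 5.60 ± 1.0 (adjusted p = 0.0195). Leaving out AML1-ETO GMP replicate 3, Sox18 was at 6.56 (adjusted p = 0.0282), Trim47 at 3.65 (adjusted p = 0.00858) and Nupr1 at 4.65 (adjusted p = 0.0306). Of these 4 genes, Slamf1, Sox18 and Trim47 lost their calls without each of the 4 control GMP libraries in turn, and Nupr1 without 3 of them. Between AML1-ETO GMPs and AML1-ETO LT-HSCs 4 were higher and 9 lower in GMPs, against 12.6% and 9.15% of all genes. The 4 higher were near that share. The median was -0.55, against 0.00 over all genes. Ly6a was lower there at a log2 ratio of -4.95 ± 0.79 (adjusted p = 0.00054) and the lymphocyte GTPase gene Gimap6 at a log2 ratio of -3.16 ± 0.62 (adjusted p = 0.00246), while Ifitm1 was higher by a log2 ratio of 3.01 ± 0.76 (adjusted p = 0.0114), or 2.12 (adjusted p = 0.0554) without AML1-ETO GMP replicate 3. The difference of the AML1-ETO effects was called for 10 in the direction of GMPs and for 1 in the other, against 3.43% and 2.91% of all genes. Among the 10 were Mycn at 8.07 ± 1.91 (adjusted p = 0.0225), Slamf1 at 6.42 ± 1.40 (adjusted p = 0.0151) and Vwf, the von Willebrand factor gene, at 5.13 ± 1.34 (adjusted p = 0.0349). Leaving out AML1-ETO GMP replicate 3 gave 4 in the direction of GMPs, with Mycn at 0.35 (adjusted p = 0.931), Slamf1 at 3.78 (adjusted p = 0.0338) and Vwf at 2.21 (adjusted p = 0.148). Without AML1-ETO LT-HSC replicate 1 there were 3, without AML1-ETO LT-HSC replicate 2 there was 1, without 1 control GMP library there were 5 to 7, and with the replicate block 5. Comparisons that have the control GMPs or the control LT-HSCs in common are not independent of each other, and their values are given side by side only.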

How the data were processed

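RNA from sorted LT-HSCs and GMPs was sequenced from 14 samples. The deposited values are raw counts, 1 table by gene symbol with no normalisation by the authors, whose 14 columns match the sample titles. Per the submitters' processing notes HISAT2 2.0.5, featureCounts 1.5.0-p3 and build mm10 were used, in roles not given, and per the labels' protocols both SMART-Seq and SMARTer stranded library kits were. The strand setting is not given in the sources used here. Of 54532 symbols, 98.9% are in GENCODE M21, and 105 lines repeat an earlier symbol. Between replicates the chi-square per gene was 8.54 to 14.5 in control GMPs and 99.9 to 111 in AML1-ETO GMPs. It was 84.6 to 211 in control LT-HSCs and 32.0 to 68.9 in AML1-ETO LT-HSCs, all far over counting noise. Genes with a count numbered 18747 to 19508 in control GMP libraries and 13473 to 14887 in AML1-ETO GMP libraries. They numbered 12106 (replicate 3) to 15329 in control LT-HSC libraries and 16427 to 18106 in AML1-ETO LT-HSC libraries. Their part in the members' values was not tested.

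Counts were filtered (filterByExpr), TMM-scaled and tested with edgeR 4.0.16 (quasi-likelihood F test, two-sided) in R 4.3.3, with p-values adjusted over all tested genes by Benjamini-Hochberg. A call is an adjusted p under 0.05, and errors of log2 fold changes are SE. AML1-ETO was compared with control within a cell type on 7 samples, and the other comparisons used 1 fit of all 14. The common BCV (biological coefficient of variation) came to 0.785 for LT-HSCs, 0.460 for GMPs and 0.728 in the joint fit. Floors are 3 counts over a group, and they and intervals cover counting error only. The scripts were tested on simulated data. Alternatives were other scalings, no filter, DESeq2 1.42.0, other sample sets, a replicate block and leaving out each library.

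Same-numbered AML1-ETO GMP and AML1-ETO LT-HSC samples deviated together (r = 0.112, 0.208 and 0.168 over genes, each highest for its own number), so these numbers were taken as pairs from the data. In the other pairs of groups r was -0.092 to 0.052. The members and lists were chosen with earlier results of these data known. All members are named, those called in at least 1 comparison have their CPM in each sample, and other stem cell genes were eligible to be named where called at a mean of at least 20 counts, at most 6 per comparison by size of change. A gene of that list is not reported here by name.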

Additional observations from a re-analysis of the deposited data

Results flagged for a closer look

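The AML1-ETO effect differed between GMPs and LT-HSCs for 13 members by the test of the difference itself, each towards a higher effect in GMPs. Of the 13, 7 were called higher in AML1-ETO GMPs and 4 lower in AML1-ETO LT-HSCs, with Tgm2 in both, and 3 were called in neither. On the log2 scale the difference was 7.04 for Esam, 5.35 for Tek, 9.51 for Clec1a, 2.08 for Alcam, 5.70 for Art4, 7.35 for Trpc6 and 3.61 for Ltb. It was 6.21 for Mmrn1, 4.77 for Mecom, 2.86 for Mllt3, 4.64 for Fgd5, 4.76 for Pdzk1ip1 and 9.47 for Tgm2. Esam, Tek, Art4, Trpc6, Mmrn1, Fgd5 and Tgm2 were called whichever 1 library was left out. The replicate block kept the calls of these 7 and lost those of the other 6. Without AML1-ETO GMP replicate 3 the difference was 5.26 for Esam, 3.48 for Tek, 5.34 for Clec1a, 1.81 for Alcam, 3.92 for Art4, 5.66 for Trpc6 and 3.57 for Ltb. It was then 4.56 for Mmrn1, 3.28 for Mecom, 1.77 for Mllt3, 4.51 for Fgd5, 2.24 for Pdzk1ip1 and 9.72 for Tgm2.

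In 2 of 62 groups of 4 control libraries 1 sample was far from the others, where chance gives about 1 in 20. Both were low values of control LT-HSC replicate 3, Esam at 9.67 CPM and Myct1 at 25.2 CPM. The same library had no count of Procr, Prdm16 or Abcb1a.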

How the results depend on the processing

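With the replicate number as a block, 2 members were lower in AML1-ETO LT-HSCs, 2 higher in AML1-ETO GMPs and 7 called for the difference, and of the other stem cell genes AML1-ETO LT-HSCs had 0 higher and 3 lower, 0 higher and 0 lower in AML1-ETO GMPs and 5 higher for the difference. The numbers pair nothing but the AML1-ETO groups, while the block was shared by every group of a fit. Calls lost or kept with it therefore do not show what pairing alone does. The block of the AML1-ETO groups alone called 2 other genes higher. With upper-quartile factors 2 other genes were higher in AML1-ETO LT-HSCs, and in the fit of all 14 samples 0 were lower in AML1-ETO GMPs. DESeq2 called 8 other genes up and 11 down in AML1-ETO LT-HSCs, and for the difference 1 member and 3 other genes lower.

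Leaving out each library gave, for members higher and lower, 1 to 1 and 22 to 27 in control GMPs over control LT-HSCs, 2 to 3 and 2 to 10 in AML1-ETO LT-HSCs, 2 to 14 and 0 to 1 in AML1-ETO GMPs, 1 to 1 and 8 to 13 between the AML1-ETO groups, and 7 to 14 and 0 to 1 for the difference. For the other genes the ranges were 3 to 4 and 18 to 23, 0 to 4 and 3 to 9, 0 to 12 and 0 to 3, 3 to 5 and 8 to 15, and 1 to 13 and 1 to 4. Sult1a1 reversed in AML1-ETO GMPs without AML1-ETO GMP replicate 1, at -7.52 (adjusted p = 0.0170), with no count left in that group, and was at 1.06 without replicate 3. The cause of the other shifts was not tested.

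Over all genes, AML1-ETO GMPs had 765 higher and 554 lower, 107 and 5 with the block, 556 and 260 with no filter, 394 and 64 in the fit of all samples and 1371 and 938 by DESeq2. AML1-ETO LT-HSCs had 1107 and 684, 312 and 213 with the block, 912 and 853 with upper-quartile factors, 1669 and 1497 in the fit of all samples and 1324 and 1477 by DESeq2. The difference had 552 and 469, 337 and 231 with the block and 1090 and 691 by DESeq2. With DESeq2 size factors in edgeR control GMPs over LT-HSCs had 1698 higher and 2087 lower, against 2247 and 1702 with TMM, where the median of all genes was -0.12, and 1722 and 1744, against 2031 and 1474 with TMM, were called between the AML1-ETO groups. DESeq2's own test gave 1831 and 2676 in control GMPs over control LT-HSCs. Members within a few counts of 0 cannot be ranked at this depth.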
